A study of Homo sapiens with 7 samples.

Results

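The mucin genes MUC1, MUC2, MUC4, MUC5AC, MUC5B, MUC6, MUC12, MUC13, MUC16 and MUC17 are 10 of the 20162 protein-coding genes that GENCODE release 44 places on hg19. They were chosen by name as members of the mucin family. For each of them, every deposited interval over the gene body and the 10 kb around it was taken. Of the 10 genes, 6 code for transmembrane mucins (MUC1, MUC4, MUC12, MUC13, MUC16 and MUC17) and 4 for gel-forming mucins (MUC2, MUC5AC, MUC5B and MUC6).

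Mucins are very large glycoproteins whose repeated stretches, rich in serine, threonine and proline, carry dense O-linked sugar chains. Gel-forming mucins are secreted by goblet and gland cells and make up the mucus gel, and transmembrane mucins line the apical surface of epithelial cells. In the colon MUC2 is the main component of the mucus layer, and the mucins of the stomach and airways are often found outside their usual organ in carcinomas. At active promoters nucleosomes carry H3K4me3 and H3K9Ac, H3K4me1 marks enhancers and the edges of promoters, H3K36me3 lies over transcribed gene bodies, H3K27me3 is the mark of Polycomb repression, and CTCF, a protein with many zinc fingers, sits at insulators and at loop anchors of chromatin.

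The cells were HCT116, an established line from a human colorectal carcinoma, kept under 1 condition with no treatment named. Chromatin of 200000 cells in 1 well of a plate was sheared for 6 min in 100 µl with the PIXUL sonicator, and 1 library was made for each of H3K4me1, H3K4me3, H3K9Ac, H3K27me3, H3K36me3 and CTCF. An H3K27Ac library is also labelled and was not analysed here. The values are peak intervals with a fold enrichment over background and a q-value, and the lists hold no read counts, so that the depth of each library is unknown and no value has a replicate error. An interval is called past the limits here when its q-value is below 1e-03 and its fold enrichment above 2 (H3K4me1 and H3K27me3) or its q-value is below 1e-10 and its fold enrichment above 5 (the other 4 libraries), and the remaining deposited intervals are weak ones. Fold enrichment is not comparable between libraries, and a strong mark in few cells cannot be told apart from a weak mark in many.

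The labelled cell type was compared with lists of marker genes, which were chosen with earlier results of these data known. Interval names in the H3K27me3 list carry another sample prefix than HCT116, so that the values of this mark rest on the label of its file. H3K4me3 past the limits lay within 1 kb of the transcription start of 7 of 10 genes of intestinal epithelium, among them EPCAM (fold enrichment 30.4), CDX2 (31.6) and KRT19 (28.7), and was missing from VIL1, CDX1 and LGALS4. The share of all protein-coding genes is 59.1%, so that 7 of 10 is near it. It was present at 1 of 7 fibroblast genes (COL1A1, 9.21), 0 of 7 leukocyte genes, 0 of the 3 annotated endothelial genes and 0 of 4 erythroid genes. H3K4me1 past the limits was present at 7 of 10 genes of intestinal epithelium and 2 of 7 fibroblast genes (COL1A1 and PDGFRA). It was present at 0 of 7 leukocyte and 0 of 3 endothelial genes. Among the erythroid genes HBA1 (7.09) and HBA2 (4.76) had it, with weak H3K4me3 (4.69 and 4.48). Of 8 genes of mature goblet cells, 1 of them MUC2 itself, 0 had H3K4me3 past the limits at the start. In this list 3 had H3K4me1 (MUC2, SPINK4 and ZG16). The share of all protein-coding genes with H3K4me1 is 49.1%. The lists also differ in CpG content, given further on. The ratio of observed to expected CpG reached 0.6 in 6 of 10 genes of intestinal epithelium and in 0 of 8 genes of mature goblet cells. It did so in 0 of 7 fibroblast, 0 of 7 leukocyte, 2 of 4 erythroid and 1 of 3 endothelial genes. Among all protein-coding genes under that ratio, 13.3% had H3K4me3 past the limits at the start. The part of CpG content in the counts was not tested.

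At the starts of the mucin genes the marks of active promoters were nearly absent, with MUC1 as the exception. H3K4me3 past the limits lay within 1 kb of the start in 1 of 10 mucin genes, MUC1, against 59.1% of all protein-coding genes, and H3K9Ac likewise only in MUC1, against 58.5%. H3K4me1 was found there in 2 of 10, MUC1 and MUC2, against 49.1%. CTCF was found at 1 of 10 starts, again MUC1, against 13.6%, which is near the background. H3K27me3 past the limits was at 0 of 10 starts (1.22% of all genes) and H3K36me3 at 0 of 10 (0.298%). The other 8 mucin genes carried none of the 6 marks past the limits at the start, a state shared by 33.9% of all protein-coding genes.

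**Figure D1:**
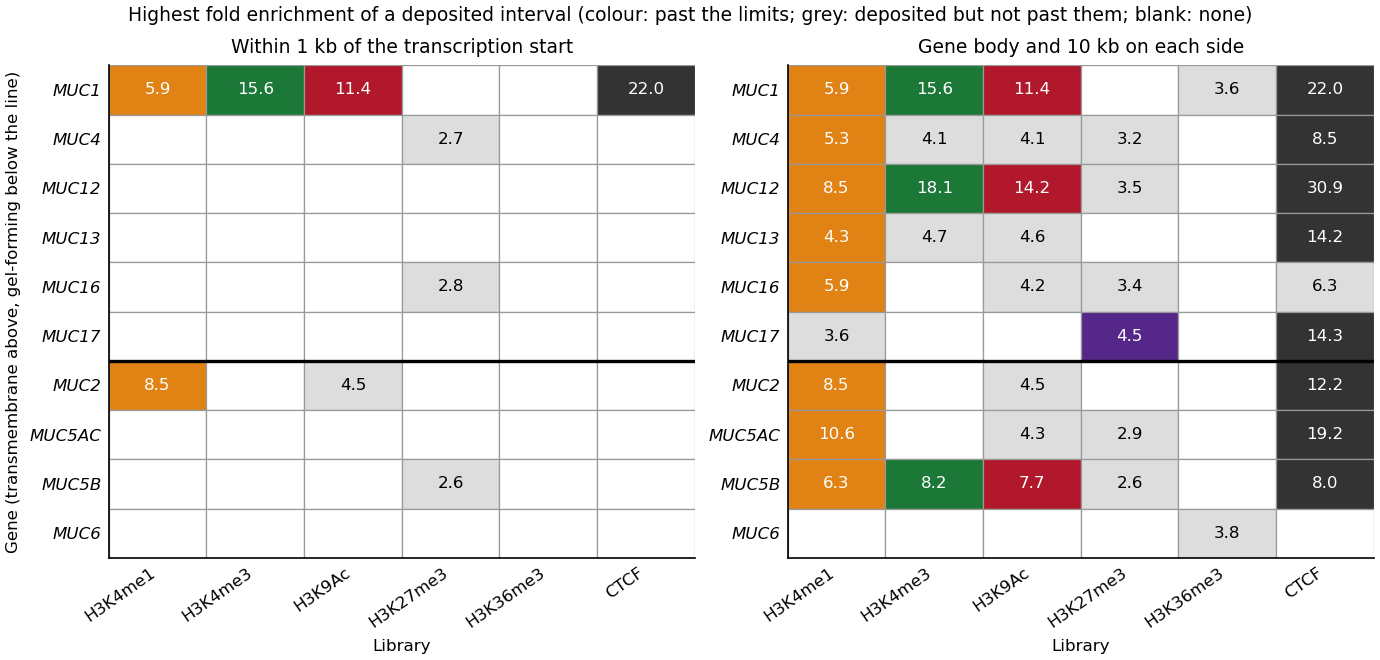
Highest fold enrichment of a deposited interval for each mucin gene (rows, transmembrane above the line and gel-forming below it) and each library (columns), within 1 kb of the transcription start (left) and over the gene body and 10 kb on each side (right). Coloured cells are past the limits, grey cells hold only weak intervals and blank cells none, and on the left only MUC1 (4 marks) and MUC2 (H3K4me1) are coloured, and on the right H3K4me1 and CTCF are coloured in 8 genes each.

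Around the genes the picture was fuller. The 10 regions held 92 distinct intervals, 34 of them past the limits, and 2 weak H3K27me3 intervals were shared by MUC12 and MUC17, which lie 1132 bp apart. H3K4me1 past the limits was present in 8 of 10 regions (all but MUC6 and MUC17), against 71.9% of all protein-coding genes, and CTCF in 8 of 10 (all but MUC6 and MUC16), against 62.4%. Both counts are near the background. H3K4me3 and H3K9Ac were present in 3 of 10 regions each, those of MUC1, MUC5B and MUC12, against 69.1% and 68.3%. With weak intervals included, H3K4me3 was in 5 of 10 regions against 72.9% of all protein-coding genes, and H3K9Ac in 8 of 10 against 79.1%, near the background. H3K27me3 past the limits was present in 1 of 10, MUC17, against 3.94%, and H3K36me3 in 0 of 10, against 0.789%. The mucin genes have a median length of 43741 bp and all protein-coding genes one of 27220 bp, so that the windows compared were not of equal size.

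The matrix of fold enrichments shows both views side by side, and the maps by distance from the start show where in each gene the intervals lay. Most intervals past the limits sat in front of or behind a mucin gene and not inside it. The bodies of MUC13 and MUC16 reach upstream of the start because longer transcripts begin before the canonical one. The H3K4me3 of MUC12 and MUC5B in particular lay away from the annotated starts of these genes.

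**Figure D2:**
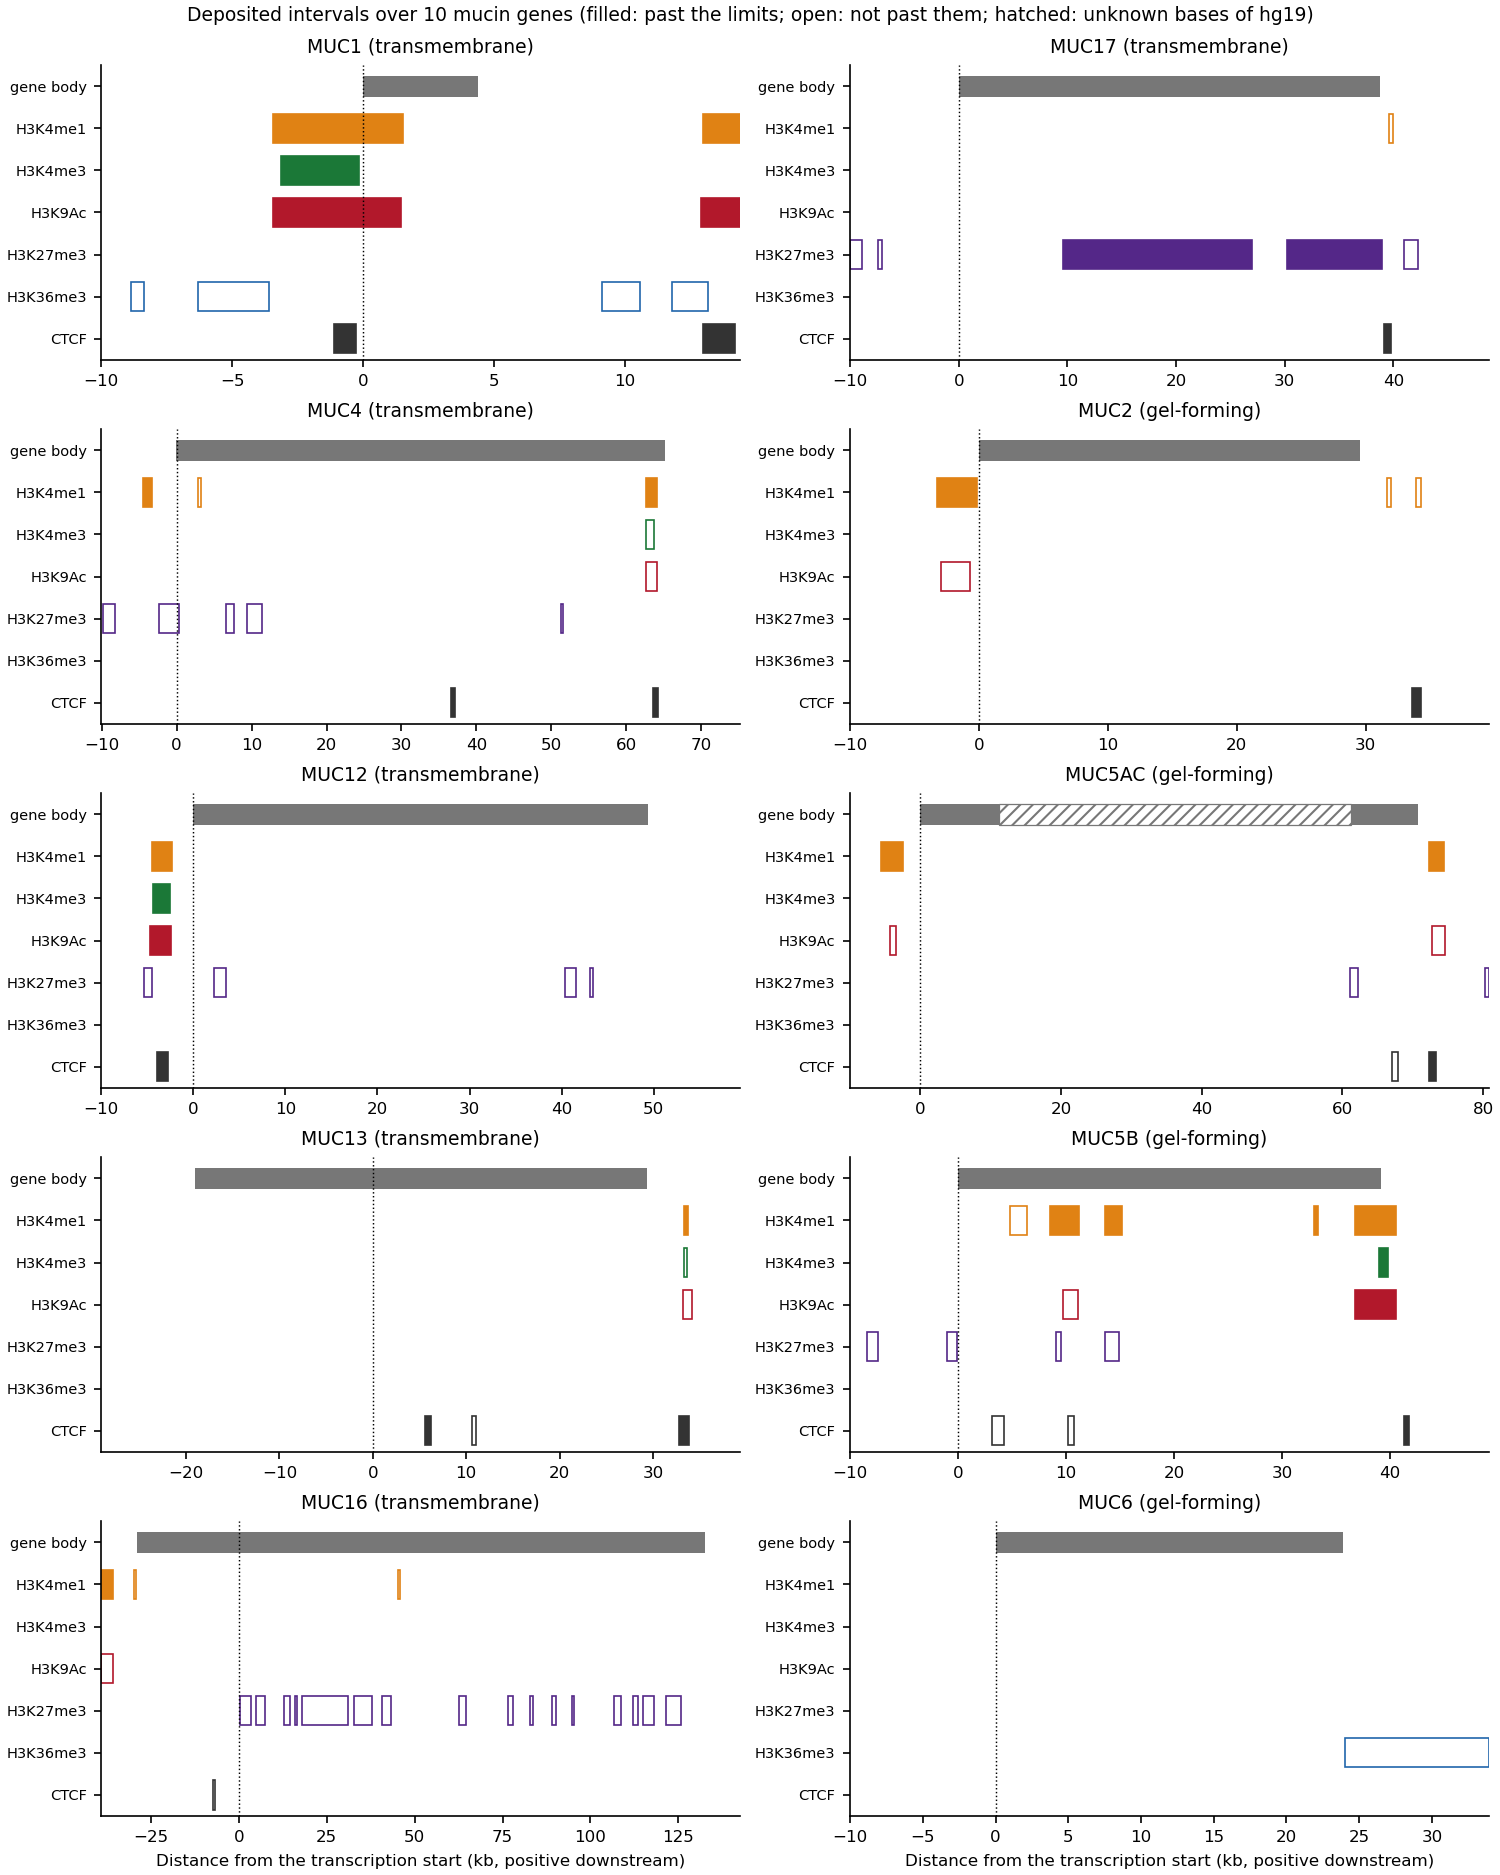
Every deposited interval over the 10 mucin genes by its distance in kb from the transcription start, 1 panel per gene, with positive distances downstream and intervals clipped at 10 kb from the gene body. Filled boxes are past the limits and open boxes weak, the grey bar is the gene body (hatched over the 50000 unknown bases of MUC5AC), and MUC17 shows 2 long filled H3K27me3 boxes and MUC16 shows 16 open ones.

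MUC1, a mucin of the apical surface of most simple epithelia with a signalling cytoplasmic tail, was the mucin gene with a marked promoter. It lies on the minus strand of chromosome 1 and starts at position 155162706. The H3K9Ac interval chr1:155161255-155166132 (fold enrichment 11.4) and the H3K4me1 interval chr1:155161173-155166159 (5.88) both contained this start and reached 1451 and 1533 bp into the gene, over 434 coding bases each. The H3K4me3 interval chr1:155162874-155165827 (15.6) did not contain it. It ended 168 bp upstream of the MUC1 start and contained the starts of the microRNA gene MIR92B and of the antisense RNA gene THBS3-AS1, whose canonical start lies 2082 bp from that of MUC1. To which of these genes the H3K4me3 belongs was not tested. A CTCF interval at chr1:155162989-155163807, with a fold enrichment of 21.96, began 283 bp upstream of MUC1 and lay wholly inside the H3K4me3 interval. It ranked 719 by fold enrichment among the 24536 CTCF intervals past the limits. By contrast, 72.4% of the H3K4me3 intervals past the limits had a fold enrichment at least that of the MUC1 interval, and 57.7% of the H3K9Ac intervals.

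The 250 bases before the start of MUC1, of MUC2 and of MUC13 are given because these genes stand for 3 promoter states in these libraries, which are 4 marks, H3K4me1 alone, and none. They were read from hg19 on the strand of the gene, at chr1:155162707-155162956, chr11:1074625-1074874 and chr3:124653596-124653845, and capitals mark CpG dinucleotides.
MUC1: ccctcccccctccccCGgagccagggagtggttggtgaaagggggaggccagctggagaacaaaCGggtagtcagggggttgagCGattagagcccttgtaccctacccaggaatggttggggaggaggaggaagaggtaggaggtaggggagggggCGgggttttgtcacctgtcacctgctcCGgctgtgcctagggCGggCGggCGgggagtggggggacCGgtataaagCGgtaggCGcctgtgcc
MUC2: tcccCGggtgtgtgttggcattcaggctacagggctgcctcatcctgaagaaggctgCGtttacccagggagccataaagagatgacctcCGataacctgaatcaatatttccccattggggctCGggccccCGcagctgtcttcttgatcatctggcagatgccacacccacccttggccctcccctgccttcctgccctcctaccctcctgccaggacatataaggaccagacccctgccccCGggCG
MUC13: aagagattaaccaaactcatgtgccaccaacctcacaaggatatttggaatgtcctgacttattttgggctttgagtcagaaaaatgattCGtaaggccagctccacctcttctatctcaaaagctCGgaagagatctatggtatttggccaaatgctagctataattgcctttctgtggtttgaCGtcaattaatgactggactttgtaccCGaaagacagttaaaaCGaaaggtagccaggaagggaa
The MUC1 stretch holds 11 CpGs, the MUC2 stretch 7 and the MUC13 stretch 5, against a median of 18 in all protein-coding genes. A TATA box (TATAAA) begins 24 bases before the MUC1 start. It was found on either strand in 9.4% of all such stretches and in 2 of the 10 mucin genes, MUC1 and MUC12. The GC box (GGGCGG) occurs at 4 positions of the MUC1 stretch, some of them overlapping, and in 58.6% of all genes and 4 of 10 mucin genes. In all, 8 motifs were searched on both strands. The AP-1 site (TGANTCA) was found in MUC2, MUC13 and MUC17, 3 of 10, against 4.72% of all genes, and the E-box (CACGTG) in MUC5AC, MUC5B and MUC12, 3 of 10, against 7.86%. MUC2 also held a CDX site (TTTATG, 6.95%) and a CCAAT box (CCAAT, 34.1%), and MUC13 a CRE (TGACGTCA, 2.4%), each in 1 of 10 mucin genes. The GATA site (AGATAA, 6.62%) was in 0 of 10. Such letters are a description of the sequence and not of binding.

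The second MUC1 cluster lay behind the gene, at the starts of TRIM46 and of KRTCAP2, which codes for a subunit of the enzyme that attaches N-linked sugars. The H3K9Ac interval chr1:155144305-155149791 (fold enrichment 10.6) and the H3K4me1 interval chr1:155144245-155149709 (4.85) contained both starts. They overlapped a CTCF interval at chr1:155148489-155149693 (13.4) that contained neither. Both genes also carried H3K4me3 and CTCF past the limits within 1 kb of their starts, in intervals beyond the 10 kb around MUC1. The starts of TRIM46 and KRTCAP2 lie 16381 and 16926 bp from that of MUC1. The coding gene ENSG00000273088, whose start lies 2958 bp downstream of the MUC1 start, had no mark past the limits there. The H3K36me3 intervals of the MUC1 region were 4 weak ones, the highest with a fold enrichment of 3.63, and lay over the neighbours TRIM46 and THBS3. None of them touched the body of MUC1. By the values of the 6 libraries at the start, the genes most like MUC1 were CEMIP, RHOC and GADD45B, with Euclidean distances of 0.13, 0.23 and 0.26 on the log2 scale of fold enrichment.

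MUC12 and MUC17, transmembrane mucins of the intestinal brush border, lie next to each other on chromosome 7 in the same direction and had different marks. In front of MUC12 stood a compact cluster of H3K4me3 (chr7:100608474-100610289, fold enrichment 18.1), H3K9Ac (chr7:100608143-100610424, 14.2), H3K4me1 (chr7:100608376-100610492, 8.53) and CTCF (chr7:100608946-100610043, 30.9). Its nearest edge was 2354 bp upstream of the annotated MUC12 start. The CTCF interval ranked 68 of 24536 and was the strongest CTCF interval in any of the mucin regions, and the H3K4me1 interval ranked 609 of 32292. The cluster contained annotated starts of an alternative transcript of MUC3A, the neighbouring transmembrane mucin gene, and of the gene RP11-395B7.2. At the canonical start of MUC3A itself, at position 100547187, no interval of any library was found within 1 kb. The H3K27me3 of the MUC12 region was 4 weak intervals, the highest with a fold enrichment of 3.49. The start of the antisense gene MUC12-AS1 near the end of MUC12 was unmarked.

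Over MUC17 the data showed the only H3K27me3 past the limits in the mucin regions. The intervals chr7:100672966-100690311 (17346 bp long, fold enrichment 4.47) and chr7:100693544-100702367 (8824 bp, 3.91) covered 66.9% of the gene body, a share that 0.501% of all protein-coding genes reached (101 of 20162). The first began 9604 bp downstream of the start and covered the whole of the largest coding exon, which is 12219 bp long and holds the repeats of the protein. The canonical start of MUC17 carried no interval of any library, while both H3K27me3 intervals contained starts of alternative MUC17 transcripts, and the second also that of the small RNA pseudogene RN7SKP54. A CTCF interval with a fold enrichment of 14.3, at chr7:100702487-100703141, followed the end of the second H3K27me3 interval after 119 bp. H3K4me1 in the region was a single weak interval (3.55), and no interval of H3K4me3 or H3K9Ac, weak ones included, was found.

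MUC16, the carrier of an antigen used as a marker of ovarian cancer, is the longest of the mucin genes with 161547 bp. Its region held 16 H3K27me3 intervals, and all were weak, with fold enrichments from 2.38 to 3.39. Together they covered 28.2% of the body (45619 bases), a share that 7.05% of all protein-coding genes reached. The longest of them, chr19:9060921-9074145, lay wholly inside the largest coding exon, which is 21693 bp long. The highest −log10 q-value among the 16 was 2.13, below the limit of 3. Upstream of the body an H3K4me1 interval past the limits (chr19:9127690-9131065, 5.89) contained the start of the pseudogene BOLA3P2, with weak H3K9Ac (4.23) at the same place, and no H3K4me3 was found in the region.

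MUC4, a transmembrane mucin that binds the receptor ERBB2, had marks past the limits upstream, in the middle and at the far end of the gene. At the far end, 62688 bp from the start, an H3K4me1 interval (chr3:195474742-195476112, fold enrichment 4.36) shared 432 bp with a CTCF interval (chr3:195474530-195475173, 8.46). Weak intervals of H3K4me3 (4.05) and H3K9Ac (4.09) lay at the same place. Upstream, an H3K4me1 interval at chr3:195542039-195543276 (5.35) ended 3239 bp before the start. In this interval 27.9% of all stretches of 75 bases occur more than once in hg19, the highest share of any interval past the limits in the mucin regions. A CTCF interval in the middle of the gene (chr3:195501691-195502220) had a fold enrichment of 5.02, at the edge of the limit of 5, and ranked 24535 of 24536. The H3K27me3 of MUC4 was 5 weak intervals with fold enrichments up to 3.21, of which 1 (2.70) lay over the start.

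MUC13, a transmembrane mucin of the intestinal surface, had no histone mark within 10 kb of its canonical start, weak intervals included. Inside the gene a CTCF interval at chr3:124647356-124648003 (fold enrichment 13.3) lay 5592 bp downstream of the start. A second CTCF interval inside the gene was weak (4.61). Behind the gene, a group of marks stood at an alternative start of ITGB5, an integrin subunit. These were CTCF (chr3:124619733-124620784, 14.2) and H3K4me1 (chr3:124619861-124620297, 4.27) past the limits and weak H3K4me3 (4.74) and H3K9Ac (4.63).

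The gel-forming mucin genes MUC6, MUC2, MUC5AC and MUC5B follow each other on chromosome 11. MUC2, the mucin of colonic goblet cells, had H3K4me1 without H3K4me3. The H3K4me1 interval chr11:1071586-1074744 had a fold enrichment of 8.47, ranked 634 of 32292 and ended 131 bp before the start at position 1074875. An H3K9Ac interval inside the same stretch was weak (4.51). H3K4me1 alone at the start was seen in 3.21% of all protein-coding genes. Behind the gene a CTCF interval (chr11:1108453-1109193, 12.2) lay 33578 bp from the start.

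MUC5AC, the surface mucin of the stomach and airways, was flanked by H3K4me1 and carried none at its start. The interval chr11:1145978-1149049 (fold enrichment 6.56) ended 2531 bp upstream. The interval chr11:1223948-1225955 (10.6) behind the gene ranked 135 of 32292 and was the strongest H3K4me1 interval in any of the mucin regions. It shared 865 bp with a CTCF interval of fold enrichment 19.2 (chr11:1223947-1224812). At both places H3K9Ac was weak (3.99 and 4.27). The 2 H3K27me3 intervals of the region were weak as well (up to 2.93), and H3K4me3 was not found. In hg19, 70.6% of the MUC5AC body is unknown bases (chr11:1162760-1212759), where no read can align, and the gene has no canonical transcript there, so that its counts cover the remaining part.

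MUC5B, the mucin of airway and salivary glands, was the only gel-forming gene with H3K4me3 past the limits, and it lay at the 3′ end. The H3K4me3 interval chr11:1283264-1284070 (fold enrichment 8.15) began 38968 bp downstream of the start, inside the H3K9Ac interval chr11:1281029-1284785 (7.74) and the H3K4me1 interval chr11:1281060-1284797 (5.99). It covered 139 bases of 3′ UTR, and no annotated start of any gene lay in it. An alternative MUC5B transcript starts at position 1280753, 276 bp before the H3K9Ac interval and 307 bp before the H3K4me1 interval. The H3K4me3 interval was low within its list, since 94.3% of the H3K4me3 intervals past the limits had at least its fold enrichment. H3K4me1 was also past the limits at 3 places inside the gene, at chr11:1252822-1255486 (6.34), chr11:1257877-1259447 (4.55) and chr11:1277277-1277640 (4.65). These intervals cover introns and, in part, coding exons. A CTCF interval of 7.95 (chr11:1285564-1286027) followed 766 bp behind the H3K4me1 at the end of the gene. H3K27me3 was weak (up to 2.64), and the starts of the RNA genes MUC5B-AS1 and ENSG00000286275 in the region carried no mark past the limits.

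MUC6, the mucin of gastric glands, was the emptiest region. It held 1 interval, a weak H3K36me3 domain of 42470 bp (fold enrichment 3.83) over AP2A2, a clathrin adaptor gene, which reached into the flank but not into MUC6. None of the 9 other mucin genes had fewer than 5 intervals.

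The mark of transcribed gene bodies was absent from all 10 genes. No deposited H3K36me3 interval, weak ones included, touched the body of any mucin gene (0 of 10), against 56.3% of all protein-coding genes. The median covered share was 0% in the mucin genes and 4.83% in all protein-coding genes. In this list 90 of 40010 intervals were past the limits, and the part of the height of the list in the absence was not tested. Deposited H3K27me3 intervals, most of them weak by number, overlapped 6 of 10 mucin bodies (MUC4, MUC5AC, MUC5B, MUC12, MUC16 and MUC17), against 20.7%. The mucin genes are longer, with a median of 43741 bp against 27220 bp, and the part of length in this count was not tested. With intervals past the limits alone, MUC17 was the only one of the 10. The share of all protein-coding genes for bodies under these limits is not given here, and the 20.7% is not its background. Covered shares for H3K27me3 were 1.49% in MUC5AC (4.65% of its bases known in hg19), 4.47% in MUC5B and 5.77% in both MUC4 and MUC12, and 0% in MUC1, MUC2, MUC6 and MUC13. The plot of covered shares shows how far MUC17 and MUC16 stood from the other 8.

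**Figure D3:**
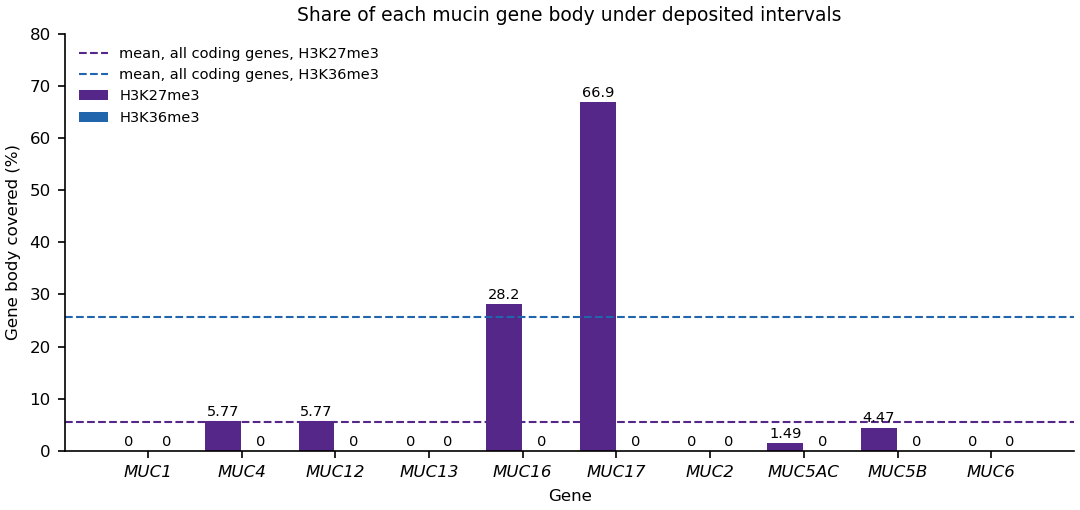
Share of each mucin gene body in percent under deposited H3K27me3 (purple) and H3K36me3 (blue) intervals, with the means over all protein-coding genes as dashed lines (5.6% and 25.7%). MUC17 at 66.9% and MUC16 at 28.2% stand above the other genes for H3K27me3, and H3K36me3 is at 0 in all 10.

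What the mucin promoters shared was a low ratio of CpG. The ratio of observed to expected CpG over 500 bp on each side of the start was between 0.19 (MUC16) and 0.45 (MUC6), with a median of 0.28, and the median of all protein-coding genes was 0.72. None of the 10 reached a ratio of 0.6, a value often used for CpG islands, and 65.8% of all protein-coding genes did. H3K4me3 past the limits lay at 83% of the starts with at least that ratio and at 13.3% of those under it. The mucin genes, with 1 of 10, were near the share of their own CpG class. The part of CpG content in this count was not tested. Around the MUC1 start the ratio was 0.26. By the number of CpGs in the 250 bases before the start, MUC6 with 19 stood above the median of 18 in all protein-coding genes. GC content over 500 bp on each side of the start had a median of 60.8%, near the 61.3% of all protein-coding genes. It was lowest in MUC13 (43.3%) and MUC16 (46.8%).

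**Figure D4:**
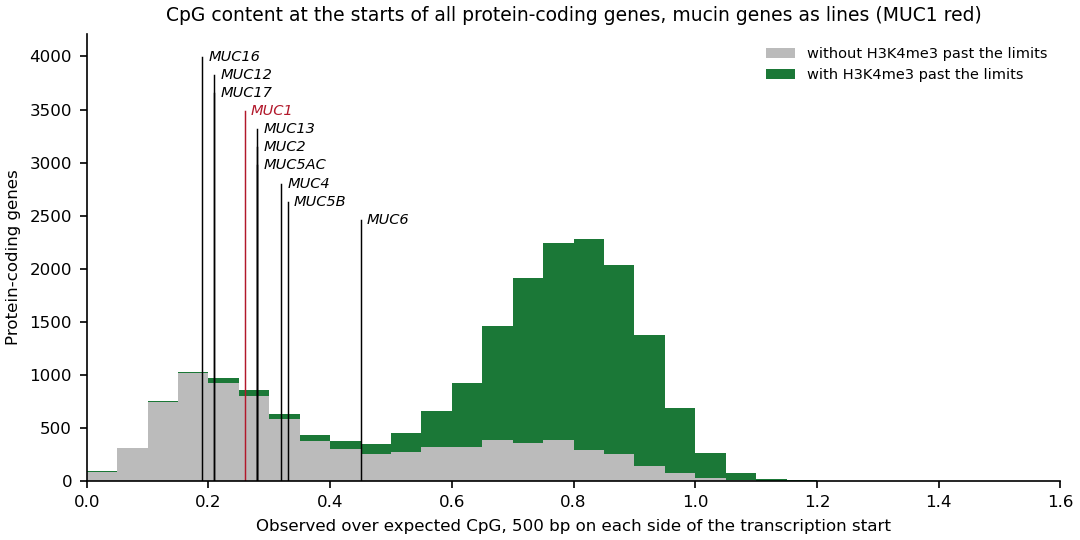
Number of protein-coding genes by the ratio of observed to expected CpG, 500 bp on each side of the transcription start, in green with and in grey without H3K4me3 past the limits within 1 kb. Vertical lines mark the 10 mucin genes (MUC1 in red), which lie between 0.19 and 0.45, in the left part of the distribution where few genes have the mark.

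The CTCF intervals of the mucin regions were searched for the core of the CTCF motif, 12 bases long, on both strands. Of the 11 intervals past the limits, 2 held an exact core, and 7 held it with up to 1 mismatch. In all 24536 CTCF intervals past the limits the shares were 22.4% (95% Wilson interval 21.9 to 22.9) and 65.9% (65.3 to 66.5), so the mucin regions were near the background. The closest match of each of the 7 CTCF intervals with the highest fold enrichment in the mucin regions is given as 30 bases on the strand of the core, with the core in capitals, to show the sequence under them.
MUC1 promoter, chr1:155163436-155163447: tcccggtgaCCACTAGAGGGCgggaggagc
MUC1 downstream, chr1:155149262-155149273: cagtatgtaCCACCAGGTGGCactgtggag
MUC12 upstream, chr7:100609593-100609604: ggtggccgtCCACTGGAGGGCgctggtcgg
MUC5AC downstream, chr11:1224388-1224399: ctgcagctgCCACGAGGTGGCagcacagtc
MUC13 body, chr3:124647647-124647658: ttgagaatgCCACAAGGTGGCgcagtgact
MUC13 downstream, chr3:124620340-124620351: atctcggggCCGGTAGGTGGCgctgtctcc
MUC17 downstream, chr7:100702788-100702799: tcagagtgtCCAGTAGGGGGAagcagagtc
Coordinates are those of the core. Both MUC1 cores were exact, and the other 5 had 1 mismatch each. The cores of the MUC1 promoter, of MUC17 and of the MUC13 downstream interval lie on the minus strand and the others on the plus strand. In the weak CTCF interval of MUC16 (fold enrichment 6.26) an exact core lay 2 bp from the centre. The intervals of MUC2, MUC4 and MUC5B past the limits had at least 2 mismatches each.

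Tandem repeats are a further feature of these genes, since a single read that lies within identical copies cannot be placed. The shares below hold for single reads, and the sources differ on whether 1 or both ends were read. Of all stretches of 75 bases, the read length, in the largest coding exon, 61.8% occurred more than once in hg19 in MUC12, 38.9% in MUC5B and 23.6% in MUC4. The shares were 2% in MUC17 and 0% in MUC16, so that the H3K27me3 intervals over their large exons lay on sequence that is nearly all unique at this length. The largest coding exons of the other 8 genes held no interval of any library. Among them are those of MUC2, MUC5AC and MUC13 with a repeated share of 0%, of MUC6 with 0.133% and of MUC1 with 3.96%, so that exons without an interval had both low and high shares. These 5 exons are shorter, from 262 bp (MUC5AC) to 3009 bp (MUC6), and the part of repeats or of length was not tested. The MUC5AC exon is the largest coding exon in the part of the gene known in hg19. Its length and share do not describe the unknown part. A unit of 84 bases with 4 identical copies in the MUC12 exon, at chr7:100634201-100634284 on the plus strand, is given as an example, with its only CpG in capitals.
MUC12 repeat: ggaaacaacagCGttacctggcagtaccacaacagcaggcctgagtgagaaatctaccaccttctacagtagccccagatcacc
Over gene bodies the repeated share was highest in MUC12 (19.5%), MUC5B (12%), MUC4 (9.19%) and MUC1 (8.26%), and it was under 2% in the other 6 genes. For MUC5AC it covers only the bases known in hg19, so that its place in this order is unknown.

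Genes that work with mucins were compared through lists of fixed membership, which were chosen with earlier results of these data known. Of 20 genes of mucin-type O-glycosylation, the enzymes that build the sugar chains on mucins, 16 had H3K4me3 past the limits at the start, 15 had H3K9Ac and 13 had H3K4me1. Among them were GALNT7 (H3K4me3 fold enrichment 38.5) and GALNT2 (31.9), which attach the first sugar, C1GALT1 (23.9), which extends it, and its chaperone C1GALT1C1 (8.04). GCNT3, B3GNT6, ST6GALNAC1 and CHST5, other enzymes of this list, had no H3K4me3 there, and GCNT3 had H3K4me1 alone (3.84). Of 15 secreted and processing proteins of goblet cells, such as AGR2, TFF3, FCGBP and CLCA1, which include the other 7 genes of mature goblet cells, 0 had H3K4me3, and 3 had H3K4me1 (BCAS1, SPINK4 and ZG16). The mucin genes had 1 of 10, and 10 other mucin genes had 0, with H3K4me1 at MUC20 and CTCF at MUCL1. MUCL1 also had weak H3K27me3 at the start (3.6), and deposited H3K27me3 covered 61.8% of its body. The backgrounds are the 59.1% given above for H3K4me3, 58.5% for H3K9Ac, 49.1% for H3K4me1 and 13.6% for CTCF. No count of these lists was tested against them.

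For transcription factors of goblet cells the count was near the background, with a share close to that of the glycosylation genes (16 of 20). Among these factors H3K4me3 lay at 7 of 9, against 59.1% of all protein-coding genes and 83% of those with a CpG ratio of at least 0.6. It was present at KLF4 (23.6), XBP1 (31.3) and FOXA3 (19.6), for example, and was missing from SPDEF and FOXA2. ATOH1, the factor that starts the secretory lineage, had H3K4me3 (7.70) together with H3K27me3 (4.29), which covered 92.8% of its body. CpG content differed between these lists too, with a ratio of at least 0.6 in 11 of 20 glycosylation genes, 8 of 9 transcription factors and 2 of 15 secreted and processing proteins (CREB3L1, a membrane-bound transcription factor, and ERN2, a sensor of stress in the endoplasmic reticulum, both without H3K4me3). Of the 9 glycosylation genes under that ratio, 5 had H3K4me3 (B3GNT3, FUT2, GALNT4, GALNT5 and GALNT6), and of the 13 secreted and processing proteins under it, 0. Among all protein-coding genes under it the share is 13.3%. The part of CpG content in the difference between the lists was not tested.

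**Figure D5:**
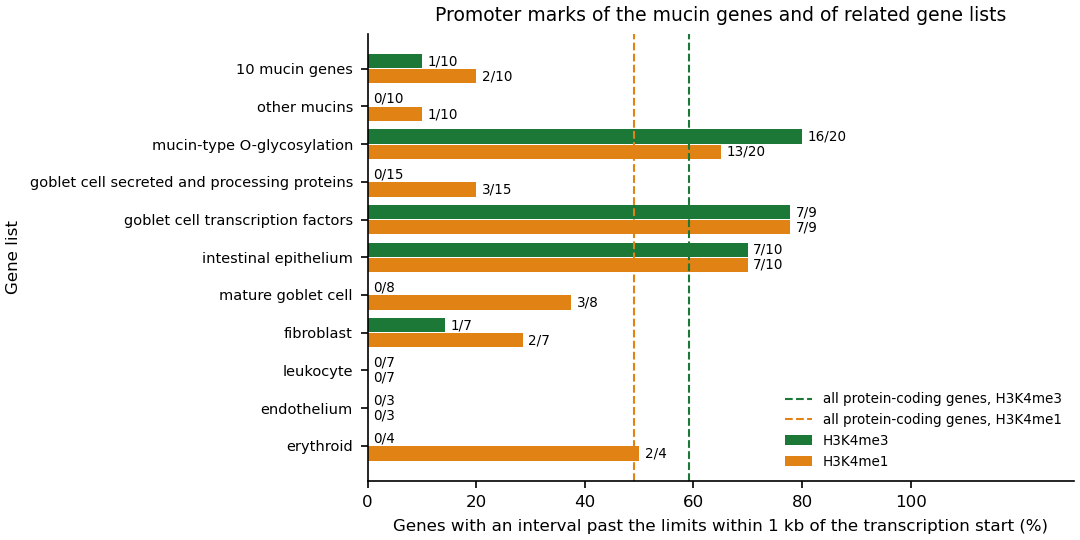
Percent of the annotated genes of each list with H3K4me3 (green) or H3K4me1 (orange) past the limits within 1 kb of the transcription start, with the counts beside the bars and the shares of all protein-coding genes as dashed lines (59.1% and 49.1%). Glycosylation genes (16 of 20) and transcription factors (7 of 9) lie above the H3K4me3 line, and the mucin genes (1 of 10) and secreted and processing proteins of goblet cells (0 of 15) below it.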

How the data were processed

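The authors used BWA 0.7.12 for alignment (hg19) and a broad cutoff of 0.1 for the peaks of each library. The methods name MACS2, and the submitters' processing notes name MACS 1.4.2. Reads of 75 bases are given as paired in one source and single in another. The deposited fold enrichment is a linear ratio of the peak over background, and the deposited −log10 p-values and −log10 q-values are those of the peak caller. Intervals past the limits of the methods were counted apart. The methods name no limits for CTCF, and those of H3K4me3, H3K9Ac and H3K36me3 were applied to it here.

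Overlap meant at least 1 bp. Starts are those of canonical transcripts of GENCODE 44 (19881 of 20162 genes), otherwise the 5′ end of the gene. Overlap code was tested on simulated intervals, and its counts equalled those of bedtools 2.31.1. Python 3.11.15, numpy 2.4.6, pandas 2.3.3, numba 0.67.0, pyfaidx 0.9.0.4 and samtools 1.23.1 were used. All 10 mucin genes are named, with their intervals past the limits and the highest weak ones, neighbours with a start in these regions, the 3 nearest genes of MUC1 and the genes of the lists. Members and lists were chosen with earlier results of these data known. Protein sequences were not used here.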

Additional observations from a re-analysis of the deposited data

How the results depend on the processing

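With 1 library for each mark, no paired analysis was possible. Of 160 alternative values, 122 stayed within the accepted range (for counts, 1.5 times) and 38 moved. None moved with a fold enrichment limit multiplied by 1.5, with starts taken within 500 or 2000 bp, or with intervals within 1000 bp merged. MUC1 had H3K4me3 at its start under every setting.
At the start, all deposited intervals gave H3K9Ac at 2 members and H3K27me3 at 3 (MUC4, MUC5B and MUC16). Exchanging the 2 pairs of limits between the marks gave H3K4me1 at 1 and H3K9Ac at 2. Within 5000 bp of the start, H3K4me1 was found at 5, and H3K4me3, H3K9Ac and CTCF at 2 each, MUC12 being added. Any annotated start gave H3K9Ac at 2 (MUC5B added), CTCF at 2 (MUC13 added) and H3K27me3 at 1 (MUC17). The shares of all protein-coding genes at the start under these settings are not given here. These counts are therefore not set against a background.
In the region, all deposited intervals gave H3K4me3 at 5, H3K9Ac at 8, H3K27me3 at 6 (30% of all protein-coding genes) and H3K36me3 at 2 (65.9%). The gene body alone gave H3K4me1 at 3, H3K4me3 at 1 (MUC5B and not MUC1, whose interval lies upstream of the body) and CTCF at 2. With 20000 bp around the gene, H3K4me3 and H3K9Ac were at 5 each and H3K27me3 at 2. For bodies alone and for 20000 bp the shares of all protein-coding genes are not given here. Whether these counts are near the background therefore cannot be read from them.
Intervals past the limits numbered 3 (H3K4me3), 4 (H3K9Ac), 2 (H3K27me3) and 0 (H3K36me3) of 5, 11, 34 and 5. All deposited intervals over bodies alone numbered 9 (H3K4me1), 2 (H3K4me3), 4 (H3K9Ac), 0 (H3K36me3) and 8 (CTCF). All deposited intervals with 20000 bp around the gene numbered 10 (H3K4me3), 18 (H3K9Ac) and 11 (H3K36me3), and with 5000 bp 3 (H3K36me3). The median H3K27me3 cover of 2.98% was 0% with intervals past the limits and 4.56% over the bases known in hg19 alone, an alternative chosen after seeing the data. The CTCF core was found in 7 intervals with 1 mismatch, against 2. Erythroid genes with H3K4me3 were 2 with all deposited intervals. The cause of these moves was not tested. Read depth is unknown, so the absence of an interval says only that none was called.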
